A study of Mus musculus with 6 samples.

Results

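The 10 genes described here encode receptor chains of the interleukin 1, interleukin 6 and interleukin 17 families. They are Il1r1, Il1rl1, Il1rap, Il18r1, Il18rap, Il6ra, Il11ra1, Il6st, Il17ra and Il17rc, and they were picked by symbol out of the 40879 genes of the count table. The choice was made with earlier results of the same comparison known, so their levels and differences between the groups are given as a description and not as a test of the families.

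Poly-A RNA was sequenced from CD8 T cells that had infiltrated MC38-hPD-L1 tumours in C57BL/6N mice, collected on day 12. MC38 is a mouse colon carcinoma line. Before sorting by flow cytometry the cells had been exposed to photocatalytic proximity labelling with deep-red light, which attaches biotin to whatever lies close to the catalyst. Biotin+ CD8 T cells carried the label and neighboured the tumour, whereas Biotin- CD8 T cells, from tumours of the same kind and age, did not carry it and were distal to the tumour. Each group held 3 libraries. The labels do not say how many animals gave a library or whether replicates were separate animals, so a p-value here reflects the spread among these libraries and no more.

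The receptors of all 3 families work as paired chains, one that binds the cytokine and a partner, often shared between receptors, that is needed for the signal. IL-1 receptors and the IL-18 receptor recruit the adaptor Myd88 through their intracellular domains. The IL-6 family signals through gp130 and the Jak and Stat proteins, and the IL-17 receptors signal through the adaptor Act1, encoded by Traf3ip2. In T cells, IL-18 is known to raise interferon gamma production, IL-33 acts on activated CD8 T cells as well as on regulatory T cells, mast cells and type 2 innate lymphoid cells, and the IL-6 receptor is known as a marker of naive and memory T cells. Il1r1, Il1rl1, Il6st, Il11ra1, Il17ra and Il17rc are also used by fibroblasts and endothelium.

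A run of 6 genes of the IL-1 receptor family lies on mouse chromosome 1, and 4 of the 10 chains are among them. Il1rl1, Il18r1 and Il18rap are direct neighbours on the same strand in GENCODE M21, with 136 bases between Il1rl1 and Il18r1 and 14507 bases between Il18r1 and Il18rap. The sequences before both Il1rl1 starts and before the Il18rap start are shown, because they hold the GATA motif in a gene that was lower in Biotin+ libraries and in a neighbour that was not. They run from 250 to 11 bases before an annotated start and come from RefSeq on GRCm38.p6, plus strand. The 3 windows of Il18r1 hold no such motif, overlap annotated exons and are not shown. Il1rl1 has a pair of annotated starts, 10059 bases apart, of which the distal one is known in the mouse for use in hematopoietic cells and the proximal one in fibroblasts. Capitals mark the GATA motif, AGATAA or TGATAA on either strand.
Il1rl1 distal start, chr1:40429320-40429559: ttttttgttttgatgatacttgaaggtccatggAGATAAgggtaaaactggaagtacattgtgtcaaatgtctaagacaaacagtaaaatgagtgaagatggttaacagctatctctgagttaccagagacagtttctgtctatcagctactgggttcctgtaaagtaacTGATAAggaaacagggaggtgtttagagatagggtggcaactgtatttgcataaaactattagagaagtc
Il1rl1 proximal start, chr1:40439379-40439618: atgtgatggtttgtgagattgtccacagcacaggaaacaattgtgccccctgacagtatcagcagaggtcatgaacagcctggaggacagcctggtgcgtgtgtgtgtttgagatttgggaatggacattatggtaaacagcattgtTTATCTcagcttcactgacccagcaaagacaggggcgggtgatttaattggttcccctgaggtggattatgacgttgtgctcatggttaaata
Il18rap, chr1:40515112-40515351: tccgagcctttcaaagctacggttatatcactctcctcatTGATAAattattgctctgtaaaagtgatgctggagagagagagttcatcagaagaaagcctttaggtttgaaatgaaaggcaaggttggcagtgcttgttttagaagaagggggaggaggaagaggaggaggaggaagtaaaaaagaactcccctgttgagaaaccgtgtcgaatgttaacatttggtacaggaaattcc

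The distal Il1rl1 start had GATA motifs 217 and 80 bases before it, the proximal one had a motif on the other strand at 103 bases, and Il18rap had a motif at 210 bases. In all, 9 of the 10 genes matched RefSeq windows of 300 bases by symbol, with 14 windows, and 10 of the 14 held no GATA motif. The remaining one with a motif belonged to Il6ra, at 245 bases. The motif was present in 18.6% of the 32851 windows of the same length over the genome. A match of letters says nothing about binding, and the gene counts do not part reads of the distal Il1rl1 transcript from those of the proximal one.

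Library totals were 16440614 to 19640693 counts in Biotin+ and 16423106 to 19035864 in Biotin-, so that a single count stood for 0.0487 to 0.0625 CPM, the read count scaled to the library's total and its TMM factor. Between 15780 and 16213 genes had a count in a Biotin+ library, against 18142 to 18477 in a Biotin- library. The 15 CD8 T cell identity genes were all detected in every library and summed to 8280 to 11240 CPM in Biotin+, against 4428 to 6289 CPM in Biotin-. Cd8a, the alpha chain of the coreceptor, had 1226, 1289 and 1162 CPM in Biotin+, against 592, 865 and 502 CPM in Biotin-. Of the 15 identity genes, 5 were higher in Biotin+ and none lower. In sorted bulk cells, fewer cells of a kind and less RNA per cell cannot be told apart.

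Of the 10 receptor chains, 6 were lower in Biotin+ than in Biotin- in edgeR's quasi-likelihood test (adjusted p below 0.05), none was higher and 4 did not pass. Over all 13360 genes tested, 6.72% were lower and 1.53% higher. The 6 were the ligand-binding chains Il1r1, Il1rl1, Il6ra and Il11ra1, the IL-1 accessory chain Il1rap, and Il17rc. Il6st, which encodes gp130, was also below its Biotin- range in every Biotin+ library without passing. Both IL-18 receptor chains and Il17ra had overlapping ranges. The count of 6 was 1 (Il1rl1) when Biotin+ replicate 2, Biotin- replicate 1 or replicate 3 of that group was left out, and 4 without Biotin- replicate 2. The median log2 fold change over the 10 was -1.26, against 0.06 over all genes tested. With the replicate number as a block, 7 were lower, Il6st being the seventh, and none was higher, where 12.0% of all genes were lower and 5.60% higher. Every Biotin+ library was below every Biotin- library for 7 of the 10 genes and for 15.9% of all genes tested, and above every Biotin- library for none of the 10 and for 13.4% of all genes. Nothing is read from these shares, because the choice of the genes used the same comparison.

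**Figure D1:**
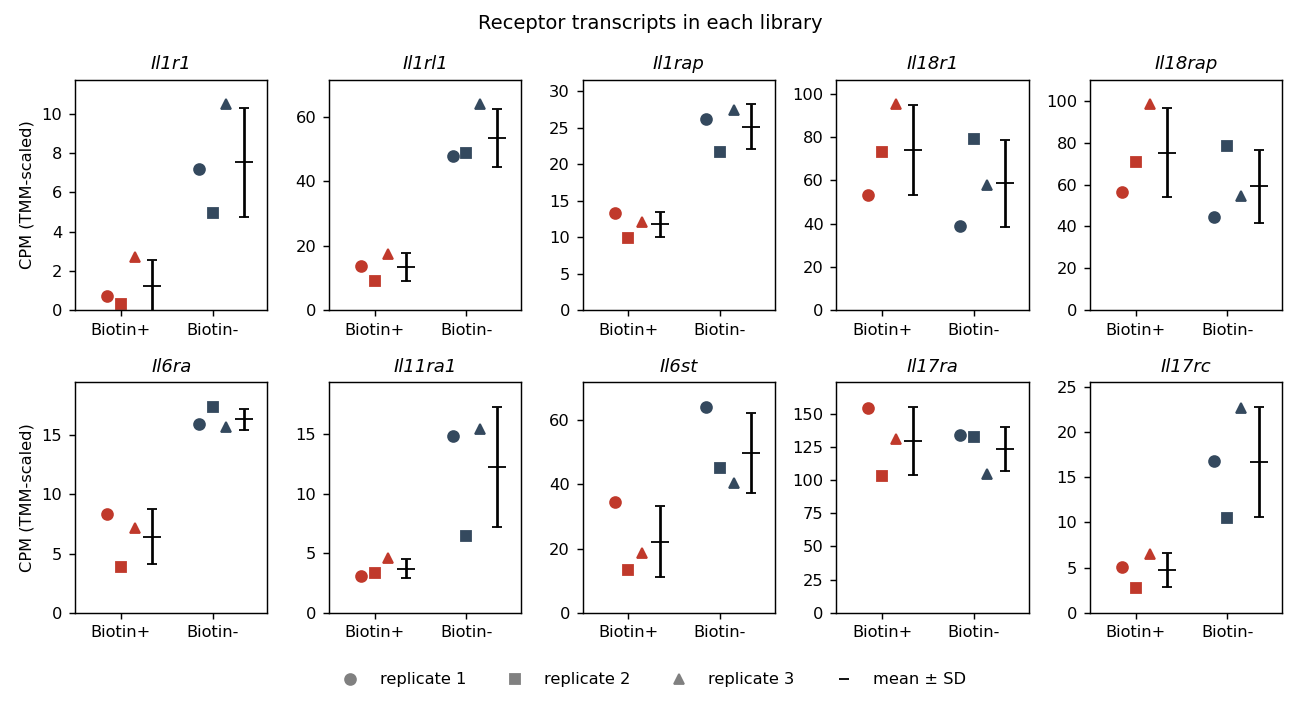
Each panel plots the TMM-scaled CPM of a receptor gene in the 3 Biotin+ libraries (red) and the 3 Biotin- libraries (dark blue), with the shape giving the replicate number and the bar the mean ± SD; axes start at 0 and differ between panels. The Biotin+ points lie below all Biotin- points for Il1r1, Il1rl1, Il1rap, Il6ra, Il11ra1, Il6st and Il17rc, and mix with them for Il18r1, Il18rap and Il17ra.

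Il1r1, the receptor that binds both IL-1 alpha and IL-1 beta, was the rarest chain. It had 0.701, 0.313 and 2.73 CPM in Biotin+ replicates 1, 2 and 3, from 13, 5 and 45 counts, against 7.20, 4.94 and 10.5 CPM in Biotin- replicates 1, 2 and 3, from 148, 90 and 194 counts. The ranges did not overlap, and Biotin+ replicate 3 stood nearest to the Biotin- libraries. The means were 1.25 ± 1.30 CPM in Biotin+, against 7.54 ± 2.79 CPM in Biotin- (SD, n = 3 each). The edgeR log2 fold change was -2.59 ± 0.68 (SE), which is 6.03-fold lower. Within pairs of the same replicate number the log2 ratio was -3.36, -3.98 and -1.94. Its call rested on few counts: it was kept without Biotin+ replicate 3 and lost without any other single library, with log2 fold changes from -3.86 to -2.19 and adjusted p up to 0.171.

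Il1rl1 encodes ST2, the receptor of IL-33. It had 13.7, 8.94 and 17.6 CPM in Biotin+ replicates 1, 2 and 3, against 47.8, 48.7 and 63.9 CPM in Biotin-. All Biotin- libraries were above every Biotin+ library with a wide gap. The mean was 13.4 ± 4.32 CPM in Biotin+, against 53.5 ± 9.04 CPM in Biotin- (SD, n = 3 each). The edgeR log2 fold change was -1.997 ± 0.28 (SE), which is 3.99-fold lower. Of the 6 chains called lower, it alone passed without any single library (log2 fold change -2.24 to -1.81, edgeR adjusted p 0.00211 to 0.0300).

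Il1rap is the accessory chain that completes the receptors of IL-1, IL-33 and IL-36. It had 13.3, 9.94 and 12.1 CPM in Biotin+, against 26.2, 21.6 and 27.5 CPM in Biotin-, with a small spread inside either group. The means were 11.8 ± 1.69 CPM in Biotin+, against 25.1 ± 3.09 CPM in Biotin- (SD, n = 3 each), and the log2 fold change was -1.09 ± 0.24 (SE). All 3 pairs gave a similar log2 ratio, -0.98, -1.12 and -1.19. The call was lost without Biotin+ replicate 2 or without Biotin- replicate 1 or 3 (log2 fold change over all left-out libraries -1.26 to -1.02, adjusted p up to 0.107).

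Counts of both ligand-binding chains were also set against those of Il1rap in the same library. Per count of Il1rap, there were 1.03, 0.899 and 1.46 counts of Il1rl1 in Biotin+ libraries, against 1.82, 2.25 and 2.33 in Biotin- libraries, ranges that did not overlap. For Il1r1 the same ratio was 0.0529, 0.0315 and 0.226 in Biotin+ and 0.275, 0.228 and 0.382 in Biotin-, where Biotin+ replicate 3 lay just below Biotin- replicate 2. Such ratios inside a library do not depend on how libraries are scaled.

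The IL-18 receptor behaved otherwise. Il18r1, its ligand-binding chain, had 53.5, 73.4 and 95.2 CPM in Biotin+, against 38.7, 79.2 and 58.0 CPM in Biotin-, so that the groups overlapped. Il18rap, its accessory chain, had 56.5, 70.9 and 98.4 CPM in Biotin+, against 44.6, 78.4 and 54.7 CPM in Biotin-. The log2 fold changes were 0.34 ± 0.29 (SE) for Il18r1 and 0.35 ± 0.27 (SE) for Il18rap, and neither passed the test. Both were higher in Biotin+ in the pairs of replicates 1 and 3 (log2 ratios 0.47 and 0.71 for Il18r1, 0.34 and 0.85 for Il18rap) and lower in the pair of replicate 2 (-0.11 and -0.15). When libraries were scaled to the CD8 T cell identity genes their log2 fold changes turned to -0.40 and -0.39.

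Il18r1 and Il18rap kept nearly equal counts in every library. The ratio of Il18r1 to Il18rap was 0.947, 1.04 and 0.968 in Biotin+ and 0.869, 1.01 and 1.06 in Biotin-. Against Il18r1, its direct neighbour, Il1rl1 had 0.255, 0.122 and 0.185 counts per count in Biotin+ libraries and 1.24, 0.615 and 1.10 in Biotin- libraries. The lowest Biotin- ratio was above every Biotin+ ratio.

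Another 2 genes of the chromosome 1 cluster were measured on either side of Il1r1. Il1r2, a decoy receptor that binds IL-1 without signalling, had 53.4, 44.3 and 28.2 CPM in Biotin+, against 20.6, 27.5 and 8.76 CPM in Biotin-. Its log2 fold change was 1.15 ± 0.39 (SE), of opposite sign to that of its neighbour Il1r1, with an edgeR adjusted p of 0.102, and of 0.00132 with the replicate block. Il1rl2, the IL-36 receptor, averaged 3.50 ± 0.849 CPM in Biotin+, against 4.89 ± 1.997 CPM in Biotin- (SD, n = 3 each) and did not pass (log2 fold change -0.48 ± 0.43, SE). In order along the chromosome, Il1r2, Il1r1, Il1rl2, Il1rl1, Il18r1 and Il18rap thus did not share a direction, even between direct neighbours. The flanking kinase gene Map4k4 did not pass, with a log2 fold change of -0.42 ± 0.24 (SE).

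**Figure D2:**
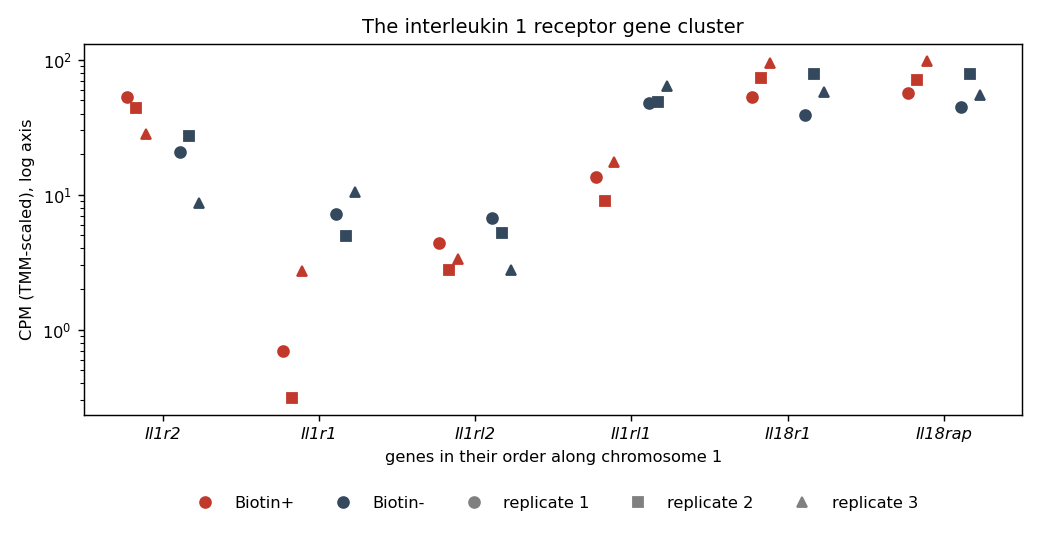
TMM-scaled CPM on a log axis for the 6 IL-1 receptor genes in their order on chromosome 1, with Biotin+ libraries in red to the left of Biotin- libraries in dark blue and the shape giving the replicate number. Il1r1 and Il1rl1 are lower in all 3 Biotin+ libraries, Il1r2 is higher in all 3, and Il1rl2, Il18r1 and Il18rap overlap; heights of different genes also reflect transcript length.

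Il6ra, which binds IL-6, had 8.31, 3.88 and 7.15 CPM in Biotin+, against 15.96, 17.4 and 15.7 CPM in Biotin-. The Biotin- libraries were close to each other, and Biotin+ replicate 2 was the lowest of the 6 libraries. Mean levels were 6.44 ± 2.30 CPM in Biotin+, against 16.4 ± 0.896 CPM in Biotin- (SD, n = 3 each), with a log2 fold change of -1.34 ± 0.32 (SE). The call was kept without Biotin+ replicate 1 or 3 and lost without Biotin+ replicate 2 or any Biotin- library (log2 fold change -1.57 to -1.11, adjusted p up to 0.103).

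Il6st encodes gp130, the signalling chain shared by the receptors of IL-6, IL-11 and related cytokines. It had 34.6, 13.3 and 18.7 CPM in Biotin+, against 64.1, 45.1 and 40.6 CPM in Biotin-. No Biotin+ library reached the Biotin- range, and in both groups replicate 1 was the highest. The log2 fold change was -1.17 ± 0.34 (SE), and the pairs gave -0.89, -1.77 and -1.12. It missed the threshold in edgeR without the block (adjusted p = 0.0625) and passed with it (adjusted p = 0.000907). Without Biotin+ replicate 1 it passed as well, with an adjusted p of 0.0181 and a log2 fold change of -1.64.

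The ratio of Il6ra to Il6st counts overlapped between the groups, at 0.240 to 0.383 in Biotin+ libraries and 0.249 to 0.388 in Biotin- libraries. By edgeR's log2 fold change, Il6ra was 2.53-fold and Il6st 2.25-fold lower in Biotin+.

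Il11ra1, the receptor of IL-11, had 3.13, 3.31 and 4.60 CPM in Biotin+, against 14.8, 6.42 and 15.5 CPM in Biotin-. Biotin- replicate 2 was the lowest of its group and still above all Biotin+ libraries. Counts were 58, 53 and 76 in Biotin+ and 304, 117 and 286 in Biotin-, and the log2 fold change was -1.73 ± 0.39 (SE). The call was kept without Biotin+ replicate 3 or Biotin- replicate 2 and lost without any of the other 4 libraries (adjusted p up to 0.120). Its values are uncertain, since 50.3% of its 75-base windows in GENCODE M21 transcripts also occur in Il11ra2 or the predicted gene Gm13305, to which the table gave 0 and 1 counts in all. Its exons also overlap those of Ccl27a, a chemokine gene on the other strand with 3.24 ± 1.44 CPM in Biotin+, against 2.97 ± 2.31 CPM in Biotin- (SD, n = 3 each), and the strand setting of the counting is not given.

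Il17ra, the chain common to the IL-17 receptors, was among the most abundant of the 10. It had 154, 103 and 131 CPM in Biotin+, against 134, 132 and 104 CPM in Biotin-. The ranges overlapped and the log2 fold change of 0.07 ± 0.21 (SE) did not pass. The sign of so small a value depended on the scaling, at -0.12 with library size alone and -0.68 with scaling to the identity genes, and it was also negative without Biotin+ replicate 1 (-0.08) or Biotin- replicate 3 (-0.04).

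Il17rc, which pairs with Il17ra to bind IL-17A and IL-17F, had 5.02, 2.69 and 6.48 CPM in Biotin+, against 16.8, 10.5 and 22.7 CPM in Biotin-. In both groups replicate 3 was the highest and replicate 2 the lowest. The 3 pairs gave nearly the same log2 ratio, -1.74, -1.97 and -1.81, and the log2 fold change was -1.82 ± 0.40 (SE). The call was lost without Biotin+ replicate 2 or without Biotin- replicate 1 or 3 (adjusted p up to 0.110). Per count of Il17ra there were 0.0326, 0.0261 and 0.0495 counts of Il17rc in Biotin+, against 0.125, 0.0797 and 0.218 in Biotin-, without overlap.

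Levels of different chains were set side by side as counts per kilobase of the longest GENCODE M21 transcript, scaled to the same sum in every library as TPM values are. In Biotin+ the order was led by Il18r1 with 34.8 ± 12.5, Il17ra with 33.3 ± 11.2 and Il18rap with 30.3 ± 11.4 (SD, n = 3), which overlapped one another. A gap then followed to Il6st with 5.19 ± 3.12, Il1rap with 5.16 ± 1.51 and Il1rl1 with 5.10 ± 2.28. Below them, each overlapping the next, were Il17rc with 4.19 ± 2.16, Il11ra1 with 2.79 ± 0.927, Il6ra with 1.52 ± 0.717 and Il1r1 with 0.450 ± 0.491.

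In Biotin- no such gap stood between the leading chains and the rest. Il17ra had 37.1 ± 4.63, Il18r1 32.6 ± 10.2, Il18rap 28.0 ± 7.12 and Il1rl1 23.6 ± 4.53 per kilobase, followed by Il17rc with 17.03 ± 6.68, Il6st with 13.4 ± 3.60, Il1rap with 13.0 ± 2.05 and Il11ra1 with 11.1 ± 4.83, each range overlapping the next. Il6ra with 4.41 ± 0.0703 and Il1r1 with 3.05 ± 1.21 lay below, apart from the others. Their own ranges nearly touched, with 4.345 in the lowest Biotin- library for Il6ra and 4.3 in the highest for Il1r1. For scale, Cd8a had 762 per kilobase in Biotin+ and 483 in Biotin-. The range of Il1rl1 thus reached that of Il18rap in Biotin-, and lay far below it in Biotin+.

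Markers of other cell types were set beside the receptors. The summed CPM of 15 fibroblast and endothelial markers was 176 to 385 in Biotin+ and 1151 to 1542 in Biotin-. Of the 12 tested, 8 were lower in Biotin+ (median log2 fold change of the 12 -2.18). These were Col1a1, Col1a2, Col3a1, Col5a1, Dcn, Pdgfra, Sparc and Fbln1, none of them endothelial. The endothelial genes Pecam1 (edgeR adjusted p = 0.172, and 0.0287 with the block) and Kdr (0.374) did not pass without the block. Neither did the fibroblast genes Lum (edgeR adjusted p = 0.472, and 0.340 with the block) and Pdgfrb (0.0712, and 8.52e-05 with the block). Cdh5, Fap and Tek were too low to be tested. Fap and Tek had 0 counts in Biotin+, against 15 and 5 counts in Biotin-. Biotin+ replicate 3 had the highest fibroblast and endothelial sum of its group. It was also the highest Biotin+ library for Il1r1, Il1rl1, Il11ra1 and Il17rc, as well as for Il18r1 and Il18rap. Il1rap, Il6ra, Il6st and Il17ra were highest in Biotin+ replicate 1. In Biotin- the sum was highest in replicate 1, as were Il6st and Il17ra. Il1r1, Il1rl1, Il1rap, Il11ra1 and Il17rc were highest in Biotin- replicate 3, and Il6ra, Il18r1 and Il18rap in Biotin- replicate 2. The 10 macrophage and monocyte markers summed to 279 to 781 CPM in Biotin+, against 624 to 2396 CPM in Biotin-, ranges that overlapped, and none of the 10 passed without the block. With the replicate block, 3 of the 10 were lower, namely Mrc1 (adjusted p = 4.58e-05), Adgre1 (0.00303) and Lyz2 (0.0170), as were 10 of the 12 fibroblast and endothelial markers, and 13 of the 15 CD8 T cell identity genes were higher. The log2 ratio of the macrophage sum within pairs was -1.62, 0.32 and -1.60 for replicates 1, 2 and 3. The part of these cells in the receptor levels was not tested.

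For the other 7 marker lists the summed ranges of the groups overlapped. The 6 markers of CD4 and regulatory T cells summed to 399.5 to 599 CPM in Biotin+, against 224 to 462 CPM in Biotin-. Ctla4 made up most of that sum, at 302 to 524 CPM in Biotin+, against 151 to 374 CPM in Biotin-. Cd4 had 0.848 to 1.62 CPM in Biotin+, against 2.27 to 5.45 CPM in Biotin-. Foxp3 had 0.121 to 2.21 CPM in Biotin+, against 0.162 to 3.21 CPM in Biotin-. With the block Cd4 was lower (adjusted p = 0.0353) and Ctla4 higher. The 9 mast cell and type 2 innate lymphoid markers, cells that are rich in ST2, summed to 143 to 216 CPM in Biotin+, against 110 to 267 CPM in Biotin-, with none of 6 tested called. Rora, which T cells also express, made up most of that sum, at 117 to 166 CPM in Biotin+, against 81.3 to 235 CPM in Biotin-. The mast cell genes Tpsb2, Mcpt4, Cpa3 and Fcer1a were low. Tpsb2 had 0, 0 and 0.606 CPM in Biotin+, against 1.51, 0.274 and 3.73 CPM in Biotin- (lower with the block, adjusted p = 0.0185). Mcpt4 had 0, 0 and 1.21 CPM in Biotin+, against 0.633, 0.110 and 1.46 CPM in Biotin-. Cpa3 and Fcer1a had 0 counts in Biotin+, against 25 and 14 counts in Biotin-, and Il5 had 0 counts in Biotin+, against 1 in Biotin-. Il13 went the other way without passing, at 2.43, 1.25 and 1.21 CPM in Biotin+, against 0.778, 0.548 and 0.541 CPM in Biotin-. Kit and Areg overlapped, with means of 15.0 and 18.1 CPM in Biotin+, against 13.7 and 24.3 CPM in Biotin-. Sums of the neutrophil list were 2.97 to 17.6 CPM in Biotin+, against 3.35 to 8.27 CPM in Biotin-. For dendritic cells they were 25.1 to 37.8 CPM in Biotin+, against 22.9 to 44.7 CPM in Biotin-, and for NK and gamma delta T cells 12.3 to 29.2 CPM in Biotin+, against 6.43 to 18.3 CPM in Biotin-. The B cell list held 1.19 to 2.85 CPM in Biotin+, against 2.19 to 2.58 CPM in Biotin-. The epithelial and tumour list held 23.3 to 135.5 CPM in Biotin+, against 14.2 to 56.8 CPM in Biotin-. Cdh1 made up most of the latter sum, at 129, 20.7 and 19.4 CPM in Biotin+, against 51.8, 20.7 and 9.24 CPM in Biotin-. Krt8, Krt19, Cldn3 and Cldn4 had 0 counts in Biotin+, against 5, 2, 0 and 14 counts in Biotin-. Krt18 had 39 counts in Biotin+, against 11 in Biotin-. Epcam was detected in every library, at 4.25 ± 0.861 CPM in Biotin+, against 4.33 ± 0.292 CPM in Biotin- (SD, n = 3 each). In these last 5 lists the block called Siglech lower, and Klrb1c and Cdh1 higher. Their part in the receptor levels was not tested either.

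**Figure D3:**
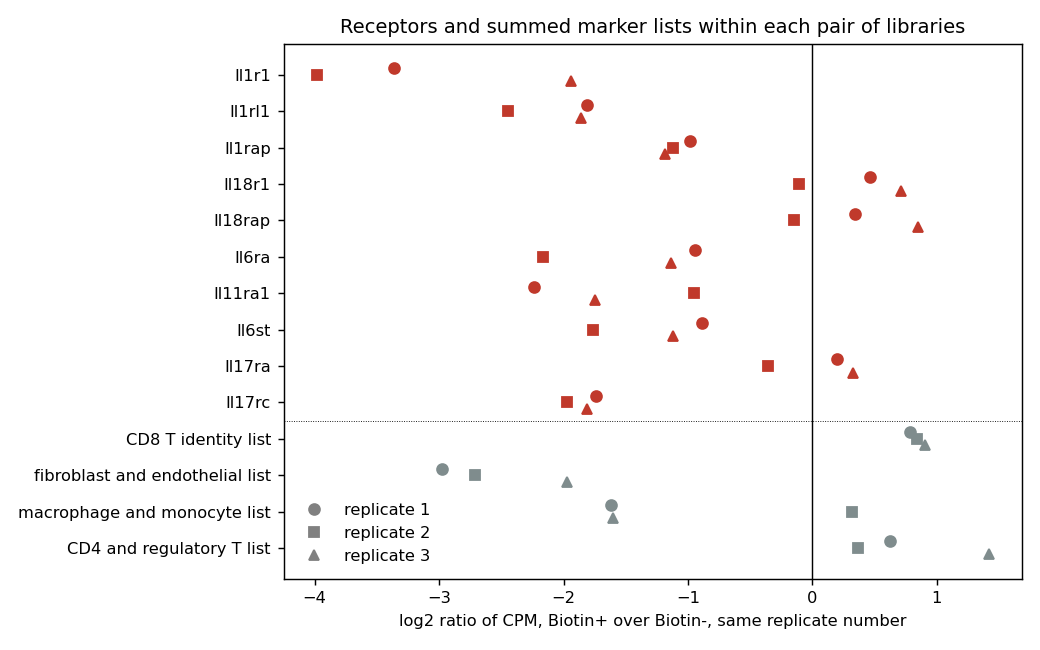
Log2 ratio of CPM, Biotin+ over Biotin-, within each pair of libraries of the same replicate number, for the 10 receptor genes (red) and 4 summed marker lists (grey). Ctla4 made up most of the CD4 and regulatory T cell sum. For 7 receptors all 3 pairs lie below 0, as do those of the fibroblast and endothelial list (-2.97, -2.71 and -1.97), while the pairs of the CD8 T cell identity list lie above 0 (0.78, 0.84 and 0.90).

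Of 83 other genes of the same pathways, 81 were in the table and 60 were tested. Of these, 1 was higher in Biotin+, 1 was lower and 58 did not pass, and their median log2 fold change was 0.05. Lif, a gp130 cytokine, was lower at 6.52 ± 3.50 CPM in Biotin+, against 21.6 ± 10.2 CPM in Biotin- (SD, n = 3 each, log2 fold change -1.72 ± 0.43, SE, edgeR adjusted p = 0.0354). Pycard, the adaptor of the inflammasome that matures IL-1 beta and IL-18, was higher at 97.2 ± 32.6 CPM in Biotin+, against 50.8 ± 2.07 CPM in Biotin- (log2 fold change 0.93 ± 0.24, SE, edgeR adjusted p = 0.0401). Lif lost its call without Biotin+ replicate 2 or 3 or Biotin- replicate 1 or 3 (log2 fold change -1.48, -1.59, -1.26 and -1.90 in that order). Pycard lost it without Biotin+ replicate 2 or any Biotin- library (0.60, 0.96, 0.83 and 0.94), with library size alone (0.69) and with scaling to the identity genes (0.10).

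Of the tested ligands of these families, Lif alone passed. None of the 5 tested IL-1 family ligands passed (median log2 fold change -0.60). The highest was Il1b with 183.5 ± 85.6 CPM in Biotin+, against 212 ± 114 CPM in Biotin- (SD, n = 3 each, log2 fold change -0.21 ± 0.42, SE). Il33, the ligand of ST2, averaged 0.182 CPM in Biotin+, against 0.411 CPM in Biotin-, and Il17a 0.155 CPM in Biotin+, against 0.673 CPM in Biotin-, both too low to be tested. Among 10 tested IL-6 family ligands and other receptors, Lif passed and the other 9 did not (median log2 fold change -1.13). Il11 had 0.884 ± 0.319 CPM in Biotin+, against 4.57 ± 3.53 CPM in Biotin- (adjusted p = 0.0562, and 0.0125 with the block). The highest of this list was Il27ra, the IL-27 receptor, with 80.2 ± 15.5 CPM in Biotin+, against 60.7 ± 8.51 CPM in Biotin- (adjusted p = 0.297).

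Signalling genes downstream of the receptors did not pass without the block. This was so for all 14 IL-1 receptor adaptors and kinases (median log2 fold change 0.13), all 9 gp130 signalling genes (0.07), all 10 IL-17 signalling genes (0.15) and all 4 genes of receptor shedding (0.05), the process that releases receptors such as the IL-6 receptor from the cell surface. Tab2, a kinase adaptor, had 158 ± 42.4 CPM in Biotin+, against 148 ± 43.3 CPM in Biotin-. Stat3, the main transcription factor of gp130 signalling, had 1329 ± 92.7 CPM in Biotin+, against 871 ± 247 CPM in Biotin- (log2 fold change 0.61 ± 0.25, SE, adjusted p = 0.170). Tnfaip3, which encodes the ubiquitin-editing enzyme A20, had 2131 ± 809 CPM in Biotin+, against 2141 ± 779 CPM in Biotin-. The sheddase Adam10 had 77.6 ± 24.7 CPM in Biotin+, against 74.6 ± 11.8 CPM in Biotin- (SD, n = 3 each for all 4).

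Of the other receptors, Sigirr, an inhibitory member of the IL-1 receptor family, had 45.4 ± 10.1 CPM in Biotin+, against 36.9 ± 3.79 CPM in Biotin-. Il17rd, the only other IL-17 receptor tested, had 1.56, 0.750 and 1.09 CPM in Biotin+, against 4.23, 1.97 and 3.08 CPM in Biotin-, and did not pass (log2 fold change -1.44 ± 0.54, SE). With the replicate block, 4 of the 60 genes were higher (Il1r2, Tyk2, Stat3 and Pycard) and 8 lower (Il1a, Il6, Il11, Lif, Osm, Osmr, Socs3 and Nfkbiz), shares of 6.67% and 13.3%, near the 5.60% and 12.0% of all genes tested. Among them Socs3, an inhibitor of gp130 signalling, had 318 ± 122 CPM in Biotin+, against 480 ± 74.1 CPM in Biotin- (block adjusted p = 0.0194).

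**Figure D4:**
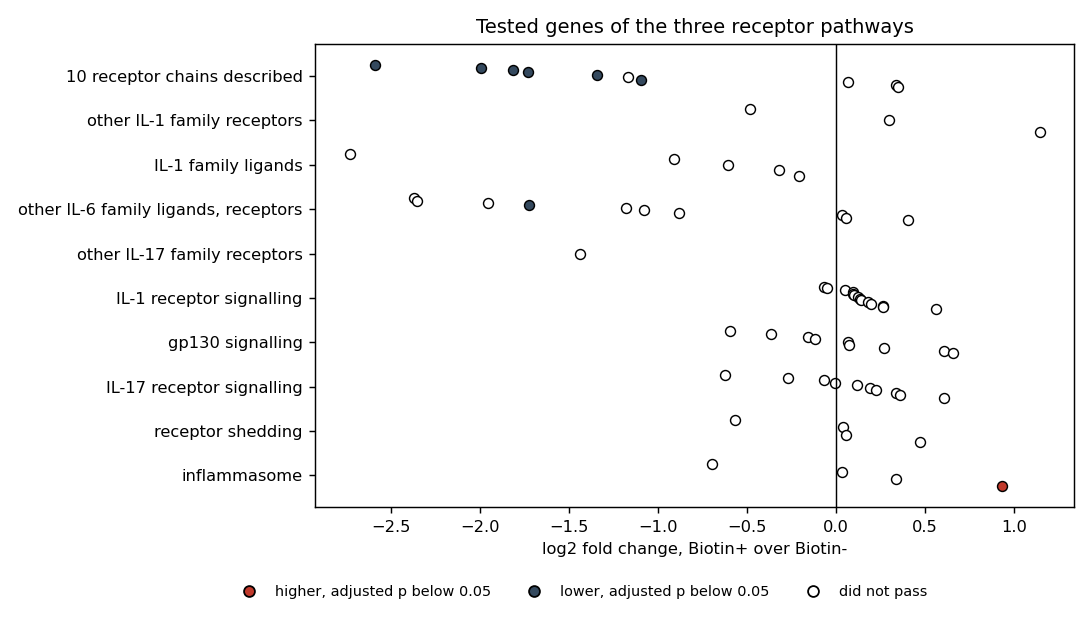
Log2 fold change, Biotin+ over Biotin-, of each tested gene of the pathways, 1 row per list, with filled points for genes that passed the edgeR test (red higher, blue lower) and open points for the others. The 10 receptor chains hold 6 lower genes, and among the 60 other genes only Lif is marked lower and Pycard higher.

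Genes with the most similar pattern over the 6 libraries were ranked by Pearson's r of log2(CPM + 1), among genes with a mean of at least 5 CPM. Since the libraries fall into 2 groups, r follows that split for any gene that differs between them, and it is given as a description. Nearest to Il1r1 were Ncs1, Gfra2 and Plcb3 (r = 0.999 each), to Il1rl1 Rprd1a, Snx27 and Usp33 (0.998 each), and to Il1rap Ajuba (0.999), Rab31 and Ctsl (0.997 each). Il18r1 and Il18rap each had the other among the 3 nearest (0.979), behind Pot1b (0.982) and Uspl1 (0.980) for Il18r1, and behind Abitram (0.986) for Il18rap. For Il6ra they were Aff3, Stau1 and Rasa3 (0.995 to 0.990), for Il6st Cntln, Pde2a and Syne1 (0.994 to 0.990), and for Il11ra1 Vat1, Niban2 and Src (0.998 to 0.995). Il17ra was followed most closely by Mon2, Plagl2 and Dyrk1a (0.996 to 0.994), and Il17rc by Extl2, Mapk12 and Mmp11 (0.999 to 0.998). Patterns with r above 0.95 were shared by 535 genes for Il17rc, 444 for Il1rl1, 427 for Il1r1 and 399 for Il1rap, by 235 for Il11ra1, 117 for Il6ra, 85 for Il17ra and 55 for Il6st, and by 19 for Il18r1 and 17 for Il18rap.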

How the data were processed

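Poly-A RNA of sorted CD8 T cells was sequenced in 3 Biotin+ and 3 Biotin- samples, grouped by their titles. The authors deposited raw read counts per gene symbol, per the labels. Trim Galore 0.6.7, STAR 2.7.10a, Picard 1.14, featureCounts 2.0.1 and GRCm39 are named in the submitters' processing notes; annotation, strand setting and multi-mapped reads are, in the sources used here, not given. Reads carry no molecular identifiers, so counting error is a lower limit.

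Genes were tested with edgeR 4.0.16 (R 4.3.3; filterByExpr, TMM, robust quasi-likelihood fit, group alone) with Benjamini-Hochberg adjustment over 13360 genes at 0.05, and the script was checked on simulated data. Of 40879 genes, 18545 had no count. Log2 fold changes are Biotin+ minus Biotin-. A chi-square test per pair of replicates found more than counting error (38.7 to 112 per degree of freedom). Replicate numbers in the titles were taken to pair the samples: deviations from group means correlated at 0.343, 0.254 and 0.375 for equal numbers and -0.262 to -0.0618 for others. The receptors, marker lists and pathway lists were chosen with earlier results of these data known. Named genes were the 10 receptors, pathway genes that passed, the tested gene of highest mean CPM per list and the 3 nearest genes of each receptor, of which 1 is not reported here. Pathway genes and flanking genes named beyond that (Il1r2, Il1rl2, Il33, Il17a, Il11, Map4k4, Cd4, Foxp3, Rora, the mast cell genes and those called with the block) were chosen after their values were seen or for their place in the cluster. Other marker genes named, of fibroblasts, endothelium, epithelium and type 2 innate lymphoid cells, were also chosen after their values were seen. Alternatives were DESeq2 size factors, library size, scaling to CD8 T cell identity genes, 2 other filters, the DESeq2 1.42.0 Wald test, limma-voom 3.58.1, a replicate block and leaving out each library. GENCODE M21 (GRCm38) gave transcript lengths for 29035 symbols (97.4% of counts), and RefSeq gave the promoter windows; no coordinate comes from the count table.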

Additional observations from a re-analysis of the deposited data

How the results depend on the processing

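Over all genes, 205 higher and 898 lower became 84 higher with library size alone, 21 higher and 3919 lower with scaling to the CD8 T cell identity genes (the median gene then sits at a log2 fold change of -0.715, against 0.06), 396 and 1495 without a filter, 471 and 1389 with the DESeq2 Wald test, and 748 and 1599 with the replicate block. Leaving out a library gave 23 to 200 higher and 239 to 1044 lower. None of the 10 receptor genes was higher under any of the 14 alternatives (nor did any pass an unadjusted 0.05 in that direction in edgeR), and 5 to 7 were lower under those that keep all libraries, 7 with the replicate block. Leaving out a library left 1 to 6 lower: 1 without Biotin+ replicate 2 or without Biotin- replicate 1 or 3, which in each case was Il1rl1. Among the other pathway genes, the higher count of 1 was 0 with library size or identity scaling, 2 without a filter, 3 with the Wald test, 4 with the replicate block and 0 to 3 without a library. The lower count of 1 was 18 with identity scaling, 6 without a filter, 4 with the Wald test, 8 with the block and 0 to 2 without a library. Signs turned for Il18r1 (-0.40) and Il18rap (-0.39) with identity scaling, and for Il17ra with library size (-0.12), identity scaling (-0.68) and without Biotin+ replicate 1 (-0.08) or Biotin- replicate 3 (-0.04), with 0.18 as the highest value without a library; the cause was not tested. Il1r1 had an adjusted p of 0.0592 with library size alone. Of the receptors' 140 single-gene values, 108 kept sign and call, 20 lost the call, 6 gained it and 6 changed sign. The block changed no receptor call other than that of Il6st. Depth limits Il1r1 most, with 63 counts in all over the Biotin+ libraries.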

Other observations

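The decoy receptor Il1r2 and the signalling receptor Il1r1, neighbours on chromosome 1, were set against each other after their values had been seen. Per count of Il1r1 there were 76.2, 142 and 10.3 counts of Il1r2 in Biotin+ replicates 1, 2 and 3, against 2.87, 5.57 and 0.835 in Biotin- replicates 1, 2 and 3. The lowest Biotin+ ratio, in replicate 3, was above the highest Biotin- ratio, and the Biotin+ ratios rest on 13, 5 and 45 counts of Il1r1. No test was made of this ratio, and the part of other cell types in it was not tested.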
